A study of Mus musculus with 8 samples.

Results

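Transcripts of the RNA polymerase I and III machinery and of nucleolar ribosome assembly were compared between G1 and G0 fibroblasts. The members were every probe set whose only platform gene symbol began with Polr1 or Polr3, together with the probe sets of 47 listed genes of these pathways. The rule gave 112 of the 45037 probe sets tested, standing for 49 of 18193 genes, and 2 of these, Polr3c and Polr3gl, came in through the prefix alone. It used names only and no measured value, but the members and lists were chosen with earlier results of these data known. The cells were NIH3T3, an established line of mouse embryonic fibroblasts, and both groups carried mVenus-p27K- and mCherry-hCdt1(30/120). The first stands for a fluorescent fusion of the K- form of p27. Native p27 is an inhibitor of cyclin-dependent kinases that is abundant in quiescence, and inhibition by the fused form was not measured here. The second stands for a fluorescent fragment of Cdt1, which is present before S phase. All cells were starved of serum and then kept in 10% serum for 5 h before sorting. G1 cells were sorted as mVenus-negative and mCherry-positive, and G0 cells as positive for both. There were 4 arrays of G1 cells and 4 of G0 cells, from total RNA. Nothing in the labels ties the replicates to separate cultures, so the spread behind every p-value is that between these samples and may be technical.

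RNA polymerase I transcribes the long precursor of ribosomal RNA in the nucleolus, and RNA polymerase III makes the smallest ribosomal RNA, the transfer RNAs and other short RNAs. The precursor is modified by small nucleolar ribonucleoproteins (snoRNPs), cut within the small subunit processome, and built into pre-ribosomal particles by large subunit assembly factors. Quiescent fibroblasts are known to make few ribosomes, and serum is known to raise ribosome production as cells return to the cycle.

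Every value is a log2 signal from which the probe set's own median over the 8 arrays had been taken away, so differences between arrays are measured and absolute levels are not. For the same reason the labelled cell type could not be checked against the levels of its markers. In such bulk samples fewer cells of a type and less RNA per cell cannot be told apart. Poly-A spike-in controls, bacterial RNAs added before labelling, were missing on G1 replicate 4 and G0 replicate 3, at medians of −6.40 and −7.12 against medians between −0.14 and 0.62 on the other arrays. By the labels' protocols it is replicate 4 of both groups that was labelled by another kit protocol revision and from another RNA input. The spike-ins and the labels thus give different batches. The limma fit used the labelled batch as a covariate, and results are also given with the spike-in batch and for the 6 arrays with spike-ins.

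No member passed the test of G1 against G0. Of 112 probe sets, 0 had an adjusted p under 0.05 in limma (lowest 0.489), where 0.4% of all probe sets did. At an unadjusted p under 0.05 there were 3, or 2.68%, against 7.3% of all probe sets. All 3 were higher in G1, as were 3.71% of all probe sets at that p, and 0 were lower, where 3.59% of all were. They were a pair of probe sets of Tcof1 and 1 of Polr3a, a share below that of the whole array. With 1 probe set per gene, chosen by its name suffix and number, 0 of 49 genes reached an unadjusted p under 0.05, against 8.07% of all genes. On these probe sets G1 and G0 arrays were fully apart in 0 of the 49 genes, against 7.07% of all genes. That count depends on the probe set chosen. With the mean of a gene's probe sets it was 6 of 49, and 4 of the 112 member probe sets were fully apart. The shares over the whole array are not given for these, so they are not read against it.

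On the chosen probe sets the members' differences were small, and for most genes the interval was narrow. The log2 difference, G1 minus G0, had a median of 0.07 over the 49 genes and ran between −0.28 (Polr1e) and 0.64 (Tcof1). The median over all genes tested was −0.06. When all probe sets of a gene were averaged the members' median was −0.0087, so its sign is not settled. On the chosen probe sets the difference was positive in 29 member genes (59.2%), against 44.7% of all genes. For 40 of 49 genes (81.6%) the 95% interval of the chosen probe set lay within 1 log2 unit of 0. A 2-fold difference either way was then outside it. Among all genes that held for 32.4%, and among 132 other genes of the same pathways for 75.8%. It did not hold for every probe set of the members. Each role group had 2 to 6 genes with a probe set whose interval reached past 1 log2 unit. The median standard error was 0.25 for the members, 0.25 for those other pathway genes and 0.42 over all genes. On the same arrays 8 of 9 measured genes of S, G2 and M phase, such as Mki67, were higher in G1 past the test, with a median log2 difference of 3.05. Their part in the members' values was not tested.

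**Figure D1:**
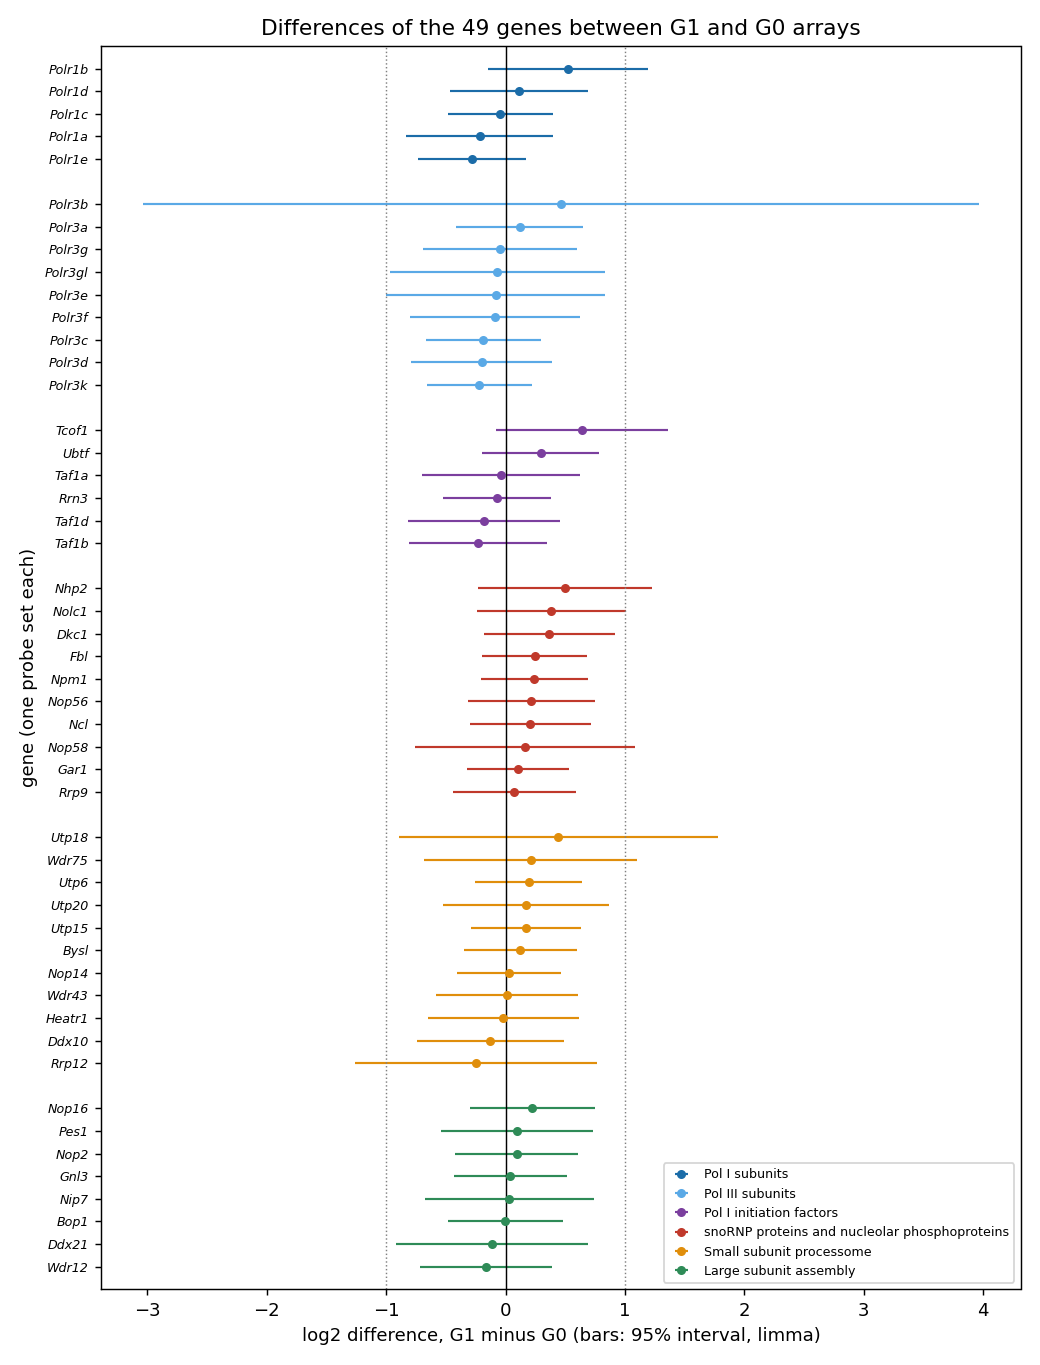
The log2 difference, G1 minus G0, of each of the 49 genes on its chosen probe set, with the 95% interval from limma, in blocks by role. Every interval includes 0, and 40 lie between the dotted lines at −1 and 1. All 10 snoRNP and nucleolar phosphoprotein genes lie right of 0.

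The choice of batch changed no call but moved the unadjusted counts. With missing spike-ins as the batch, 0 member genes passed, and the lowest adjusted p of any member probe set was 0.161 (limma), where 0.788% of all probe sets passed. In that fit 13 member probe sets (11.6%) had an unadjusted p under 0.05, 10 higher and 3 lower in G1, against 11.3% of all. On the 6 arrays with spike-ins alone, 0 member probe sets passed (lowest adjusted p 0.507 in limma), where 0.0977% of all did. There 8 (7.14%) had an unadjusted p under 0.05, against 8.16% of all. With 3 arrays a group, 9 of the 49 genes (18.4%) had groups that did not overlap, against 16.7% of all genes. Each of these shares of members was near that of the whole array.

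Among the 5 Pol I subunit genes the median difference was −0.04, with 2 above 0 and 3 below, and it lay between −0.11 (without G0 replicate 1) and 0.02 (without G0 replicate 3) when 1 array was left out. Polr1b, a large subunit of the catalytic core, had the widest positive gap. It stood at −0.05, 0.12, 0.06 and 0.75 in G1 replicates 1 to 4, against −0.60, 0.05, −0.05 and −0.59 in G0 (log2 difference 0.52, SE 0.29, limma adjusted p = 0.783). G1 replicate 4 was the highest array and G0 replicates 1 and 4 the lowest, while the other arrays lay close together and overlapped. Where spike-ins were present it differed by 0.43 (limma adjusted p = 0.726). Polr1a, the largest subunit, read −0.07, −0.33, −0.29 and 0.49 in G1 and 0.30, −0.22, 0.52 and 0.07 in G0 on its chosen probe set (log2 difference −0.22, 95% interval −0.83 to 0.40). G1 replicate 4 and G0 replicate 3, the arrays without spike-ins, were the highest of their groups. Its 5 probe sets ran between −0.22 and 1.35, with 3 positive and 2 negative. The highest of them, 1447597_at, scattered over several log2 units within each group (SD 1.22 in G1 and 2.27 in G0), and its interval, −0.80 to 3.51, covers more than a 2-fold difference.

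The remaining Pol I subunits were measured more tightly. Polr1e, a subunit particular to Pol I, had G1 values of −0.27, −0.13, 0.02 and −0.21 and G0 values of 0.08, 0.15, −0.02 and 0.30. Only G1 replicate 3 and G0 replicate 3 overlapped, and the log2 difference was −0.28 (SE 0.19, limma adjusted p = 0.845). A second Polr1e probe set gave −0.19. Polr1c, a subunit shared by Pol I and Pol III, read −0.04, −0.08, −0.06 and 0.14 in G1 and −0.17, 0.10, 0.18 and 0.04 in G0. The arrays of both groups lay close together and overlapped. The difference was −0.04 (95% interval −0.49 to 0.40), and that of its other probe set −0.05. Polr1d, the shared partner of Polr1c, had 4 probe sets between −0.05 and 0.11.

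Most Pol III subunit genes lay slightly below 0. Of 9, 7 were negative and 2 positive, where 44.7% of all genes were positive, and 0 passed (0 at an unadjusted p under 0.05 in limma). The median difference of −0.08 was near the −0.06 of all genes. After quantile normalization the Pol III median was −0.02 and that of all genes −0.03. Leaving out 1 array moved the Pol III median between −0.21 (without replicate 4 of either group) and −0.0047 (without G0 replicate 1). Then 2 to 4 genes were positive. For 8 of the genes, on the chosen probe sets, a 2-fold difference was outside the interval. Polr3a, the largest catalytic subunit, read 0.26, 0.03, 0.30 and −0.09 in G1 and −0.10, −0.03, −0.27 and 0.42 in G0 on its chosen probe set, a difference of 0.12 (95% interval −0.41 to 0.65). The groups overlapped throughout. Its probe set 1444310_at read −0.35, 0.83, 1.02 and 1.83 in G1 and −0.27, −0.63, 0.27 and −0.41 in G0. There G1 replicates 2, 3 and 4 lay above every G0 array and G1 replicate 1 did not, and the log2 difference was 1.09 (SE 0.45, limma unadjusted p = 0.0446, adjusted p = 0.677). The third probe set of Polr3a differed by −0.03, so that 1 of 3 probe sets carried the larger value.

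Polr3b, the other large subunit, was measured with little precision on its chosen probe set. The chosen probe set read 0.19, −1.90, 1.97 and 3.35 in G1 and −0.38, −1.03, 3.36 and −0.19 in G0, with SDs of 2.27 and 1.98. High and low arrays were found in both groups, and the difference of 0.46 had an interval of −3.04 to 3.96. It was −0.56 on replicates 1 to 3 alone and 1.60 without G0 replicate 3. The other probe sets of Polr3b differed by −0.21 (SE 0.23) and −0.25 (SE 0.19). Polr3k, a small zinc-ribbon subunit, had 6 probe sets, 3 positive and 3 negative. The chosen one read −0.02, −0.06, −0.16 and 0.02 in G1 and 0.24, −0.04, 0.34 and 0.11 in G0 (log2 difference −0.22, SE 0.19, limma adjusted p = 0.89). G0 replicates 1, 3 and 4 were above every G1 array. A second probe set, 1439266_a_at, had the opposite sign and groups that did not overlap, at 0.09, 0.04, 0.10 and 0.17 in G1 and −0.36, −0.28, −0.04 and −0.14 in G0 (difference 0.30, limma adjusted p = 0.827). The probe sets 1440735_at and 1450737_at differed by −1.39 and −1.41, with standard errors of 0.81 and 0.90. The Polr3k probe sets therefore gave no single direction.

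Polr3g and Polr3gl encode alternative versions of a subunit of the Pol III initiation subcomplex, and Polr3g is the form known from human cells to be favoured in undifferentiated cells. Polr3g read 0.02, 0.06, −0.02 and −0.56 in G1 and 0.18, −0.07, −0.54 and 0.13 in G0, with both arrays without spike-ins the lowest of their groups. The groups overlapped, and the difference was −0.05 (95% interval −0.69 to 0.60). It was −0.06 where spike-ins were present. Polr3gl differed by −0.07 (95% interval −0.97 to 0.83). Each has 1 probe set, and both intervals lie within 1 log2 unit of 0. Polr3c and Polr3f, further initiation subunits, and Polr3d and Polr3e, which pair within the enzyme, were all slightly negative. Polr3c, Polr3d, Polr3e and Polr3f differed by −0.19, −0.20, −0.08 and −0.09.

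**Figure D2:**
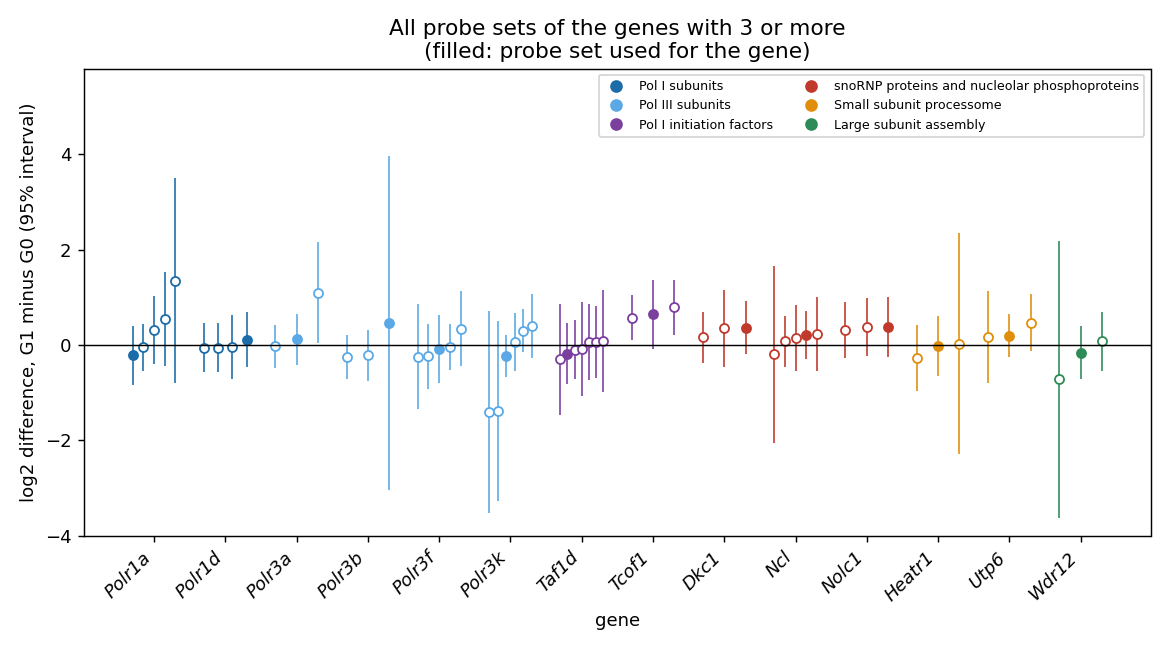
The log2 difference, G1 minus G0, of every probe set of the 14 genes that have 3 or more, with 95% intervals from limma and the chosen probe set filled. The 3 probe sets of Tcof1 lie between 0.57 and 0.79, while those of Polr3k spread between −1.41 and 0.40.

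The initiation factors held the largest difference among the chosen probe sets. Tcof1 encodes treacle, a nucleolar phosphoprotein that binds Ubtf and Pol I and is mutated in human Treacher Collins syndrome. Its probe set 1423600_a_at read 0.20, 0.17, 0.27 and 0.73 in G1 and −0.48, −0.17, −0.38 and −0.78 in G0. All G1 arrays were above all G0 arrays, and the log2 difference was 0.79, a 1.73-fold higher level in G1 (SE 0.25, limma unadjusted p = 0.0141, adjusted p = 0.489). The probe set 1423601_s_at read 0.50, 0.35, 0.07 and 0.24 in G1 and −0.22, −0.07, −0.36 and −0.48 in G0, again with no overlap (difference 0.57, SE 0.20, unadjusted p = 0.0238, adjusted p = 0.592 in limma). The chosen probe set, 1424643_at, read 0.50, 0.41, 0.57 and −0.0043 in G1 and −0.04, −0.02, −1.03 and 0.0043 in G0. Here G1 replicates 1 to 3 were above every G0 array, G1 replicate 4 lay between G0 arrays, and G0 replicate 3 was far below the rest (difference 0.64, SE 0.31, limma adjusted p = 0.74).

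No Tcof1 probe set passed under either batch or on the arrays with spike-ins. Within the labelled batches, replicates 1 to 3 and then replicate 4, the differences were 0.55 and 1.51 for 1423600_a_at, 0.52 and 0.72 for 1423601_s_at, and 0.86 and −0.0085 for 1424643_at, so that the last was near 0 in the labelled batch of 1 array a group. Between the arrays without spike-ins, also 1 a group, they were 1.11, 0.59 and 1.03. Over the 6 arrays that held spike-ins they were 0.69, 0.57 and 0.51 (limma adjusted p = 0.559, 0.571 and 0.507). Fitted with the spike-in batch instead, limma gave adjusted p = 0.182, 0.27 and 0.161. The mean of the 3 probe sets differed by 0.67 (limma adjusted p = 0.294).

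**Figure D3:**
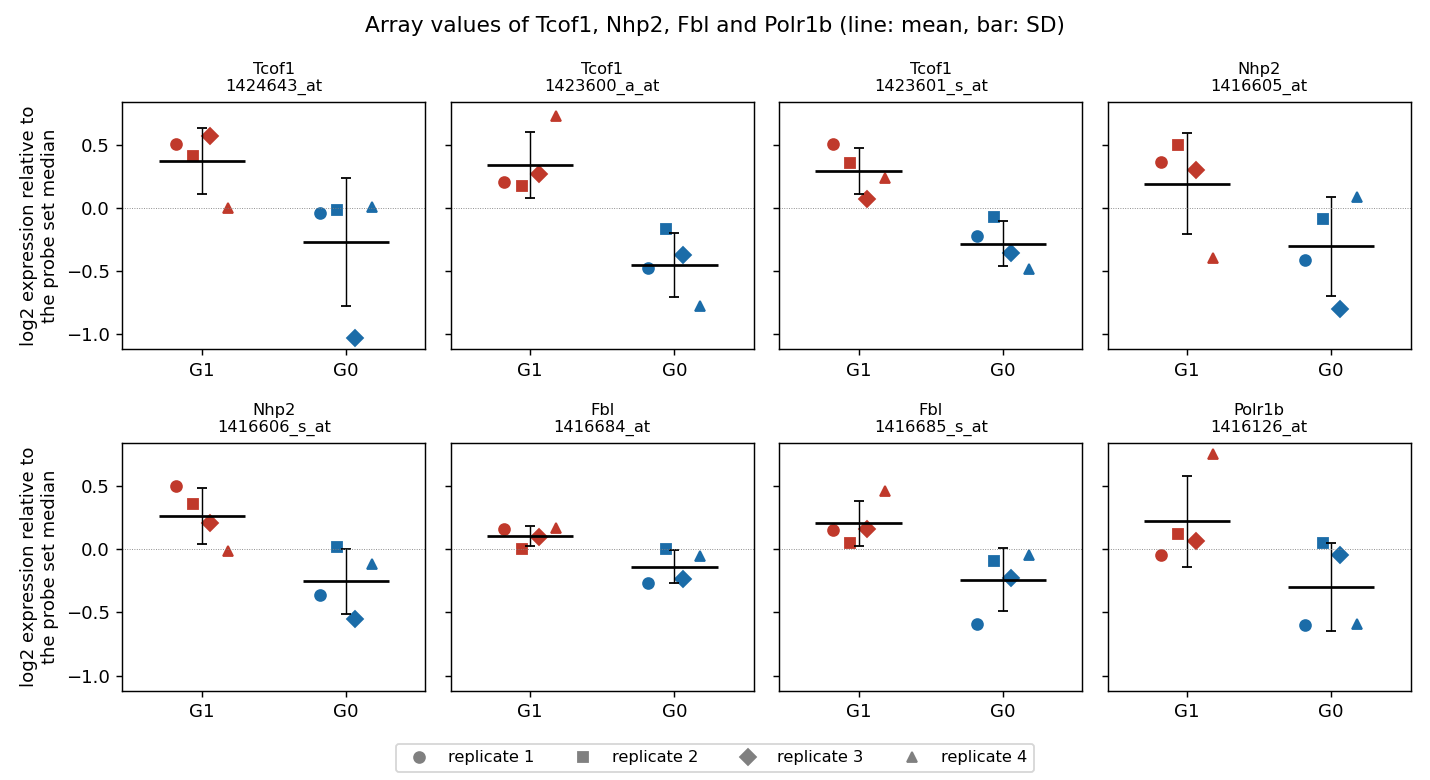
Log2 expression relative to the probe set median on each array, G1 left and G0 right, for the probe sets of Tcof1, Nhp2, Fbl and Polr1b, with replicates by marker shape, the mean as a line and the SD as a bar. The groups are apart for Tcof1 1423600_a_at and 1423601_s_at and for Fbl 1416685_s_at, and overlap on the other 5 probe sets.

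The factors that bring Pol I to its promoter showed smaller differences. Ubtf, the HMG box protein that covers active ribosomal genes, read −0.08, 0.36, 0.24 and 0.08 in G1 and −0.24, 0.12, −0.25 and −0.21 in G0 (difference 0.30, SE 0.21, limma adjusted p = 0.851). G0 replicate 2 alone of the G0 arrays lay among the G1 arrays, and the second probe set differed by 0.27. Rrn3, which couples Pol I to growth signalling and is switched on by serum through phosphorylation, read 0.06, −0.15, −0.11 and 0.06 in G1 and 0.19, −0.12, 0.15 and −0.06 in G0. Its difference of −0.07 had the smallest error of the initiation factors, with a 95% interval of −0.53 to 0.38, and the groups overlapped. Taf1b, a subunit of the promoter selectivity factor, read −0.12, −0.18, −0.37 and 0.47 in G1 and 0.12, −0.29, 0.55 and 0.33 in G0, with the arrays lacking spike-ins highest in each group (difference −0.23, adjusted p = 0.924 in limma). Taf1a and Taf1d, subunits of the same factor, differed by −0.04 and −0.18. The 7 probe sets of Taf1d ran between −0.30 and 0.08.

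The snoRNP proteins and nucleolar phosphoproteins were the group with the most uniform sign. All 10 genes lay above 0, against 44.7% of all genes, at a median difference of 0.23 and a range of 0.07 (Rrp9) to 0.50 (Nhp2). Of their 22 probe sets 21 were positive, and none of the 10 genes passed (0 at an unadjusted p under 0.05 in limma). The size of the median moved with 1 array. The group's median on the arrays was 0.14, 0.22, 0.02 and −0.03 in G1 replicates 1 to 4, against −0.22, 0.02, −0.45 and −0.03 in G0 replicates 1 to 4. G0 replicate 3, without spike-ins, was the lowest, and G1 replicate 4 and G0 replicate 4 were level. Within the labelled batches the median difference was 0.28 and 0.08, and over the arrays with and those without spike-ins 0.16 and 0.42. Without G0 replicate 3 it was 0.14, with 9 genes positive. The part of that array in the group's sign was not tested further.

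**Figure D4:**
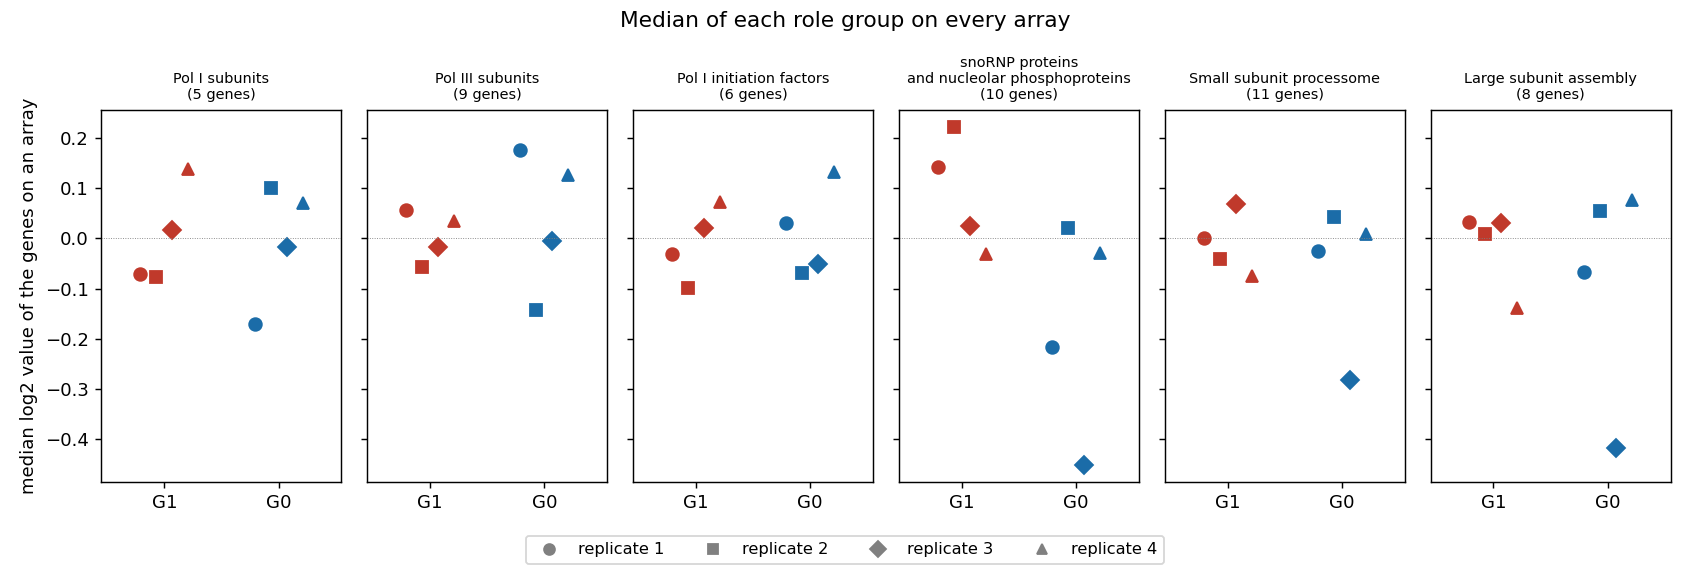
The median log2 value of the genes of each role group on every array, G1 left and G0 right, with replicates by marker shape. G0 replicate 3 is the lowest array in the snoRNP, small subunit and large subunit groups, at −0.45, −0.28 and −0.42.

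In the H/ACA class, which turns uridine into pseudouridine, Nhp2 had the largest difference. Its chosen probe set read 0.36, 0.50, 0.30 and −0.39 in G1 and −0.41, −0.08, −0.80 and 0.08 in G0. G1 replicates 1 to 3 lay above every G0 array, while G1 replicate 4 was among the lower G0 arrays (difference 0.50, SE 0.31, limma adjusted p = 0.823). A second Nhp2 probe set gave 0.52 (limma adjusted p = 0.702). Dkc1, the pseudouridine synthase of these particles, read 0.06, 0.23, 0.04 and −0.04 in G1 and −0.48, 0.04, −0.48 and −0.26 in G0, and its 3 probe sets ran between 0.16 and 0.37. Only G0 replicate 2 lay within the G1 range. Gar1, a further core protein of the class, was flatter, at 0.15, 0.18, 0.0022 and −0.03 in G1 and −0.03, −0.0022, −0.14 and 0.05 in G0 (difference 0.11, 95% interval −0.32 to 0.53). Its groups overlapped. Nolc1, which chaperones snoRNPs, had 3 probe sets at 0.38, 0.38 and 0.32.

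In the C/D class, which methylates ribose, Fbl encodes the methyltransferase fibrillarin. Its chosen probe set read 0.16, −0.001, 0.10 and 0.17 in G1 and −0.26, 0.001, −0.24 and −0.05 in G0. The groups met at G1 replicate 2 and G0 replicate 2, and the difference was 0.25 (95% interval −0.20 to 0.69). The second probe set, 1416685_s_at, read 0.15, 0.05, 0.16 and 0.46 in G1 and −0.59, −0.09, −0.23 and −0.05 in G0 with no overlap (difference 0.44, SE 0.20, limma adjusted p = 0.72). Nop56, a core scaffold protein of the class, read 0.02, 0.05, 0.0039 and −0.0039 in G1 and −0.29, 0.10, −0.51 and −0.10 in G0, a difference of 0.22 (SE 0.23). The G1 arrays lay close together (SD 0.03), while the G0 arrays scattered on both sides of them (SD 0.26). Nop58, its partner, and Rrp9, another snoRNP protein, differed by 0.16 and 0.07.

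Nucleolin and nucleophosmin, abundant nucleolar proteins that bind RNA and pre-ribosomes, had differences close in size. Ncl read 0.26, 0.22, −0.05 and 0.0043 in G1 and −0.0043, 0.12, −0.43 and −0.10 in G0 (difference 0.21, 95% interval −0.30 to 0.71), with 4 of 5 probe sets positive. For nucleophosmin, Npm1 read 0.33, 0.23, 0.06 and −0.03 in G1 and 0.03, −0.06, −0.26 and −0.09 in G0 (difference 0.24, 95% interval −0.21 to 0.69), and a second Npm1 probe set gave 0.27. In both genes G0 replicate 3 was the lowest array and the groups overlapped.

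Small subunit processome genes centred near 0, with 8 of 11 positive and a median difference of 0.12. Without G0 replicate 3 the median was 0.03 with 6 positive, and without G1 replicate 3 it was 0.06 with 6 positive. With the mean of a gene's probe sets it was 0.03, with 6 genes positive and 5 negative. Heatr1, an early component that also acts in Pol I transcription, read 0.03, −0.04, 0.02 and −0.43 in G1 and −0.02, 0.18, −0.60 and 0.11 in G0. The arrays without spike-ins were the lowest of each group, and the others lay close together (difference −0.02, 95% interval −0.65 to 0.61). Rrp12, needed for export of the particles in yeast, showed the same array pattern more strongly. It read −0.12, 0.12, −0.16 and −1.16 in G1 and 0.40, 0.17, −1.03 and 0.13 in G0 (difference −0.25, SE 0.43, limma adjusted p = 0.967), while the arrays that held spike-ins gave −0.29 (SE 0.18, limma adjusted p = 0.721). Its sign turned on replicates 1 to 3 alone, to 0.10, while without G0 replicate 3 it was −0.62. Nop14, a scaffold of the particle, was flat, at 0.03, −0.09, 0.24 and −0.08 in G1 and −0.06, 0.04, −0.0087 and 0.0087 in G0 (difference 0.03, 95% interval −0.40 to 0.47). Its arrays overlapped throughout. Utp18 had the group's highest difference, from a scattered probe set at 0.50, −0.26, 1.11 and −0.07 in G1 and 0.07, −0.74, −1.25 and 1.43 in G0 (difference 0.44, SE 0.57). The G0 arrays held both the highest and the lowest value, and the second probe set differed by 0.10. The 3 probe sets of Utp6, another processome gene, were all positive, between 0.16 and 0.47, and none passed. Utp15, Utp20, Wdr43, Wdr75, Bysl and Ddx10 differed by 0.17, 0.17, 0.01, 0.21, 0.12 and −0.13.

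The 8 large subunit assembly genes had no settled direction. Their median difference on the chosen probe sets was 0.04, with 5 positive and 3 negative. Over all 15 probe sets the median was −0.04 with 6 positive, and the mean of a gene's probe sets was negative in 6 genes. Leaving out 1 array of replicates 1 to 3 moved the median between −0.05 (without G0 replicate 3, 2 positive) and 0.11 (without G0 replicate 2). Replicates 1 to 3 alone gave 0.17. On the chosen probe sets a 2-fold difference was outside every interval, but 4 other probe sets, 1 each of Nip7, Nop16, Pes1 and Wdr12, had intervals that reached past −1. Pes1, Bop1 and Wdr12 form the PeBoW complex, which is needed to process the large subunit RNAs. Pes1 read 0.06, −0.01, 0.25 and −0.47 in G1 and −0.19, 0.01, −0.52 and 0.16 in G0 (difference 0.09, SE 0.27), with the arrays lacking spike-ins lowest in both groups. A second Pes1 probe set gave −0.48, of the opposite sign (limma adjusted p = 0.747). Bop1 read −0.06, −0.19, 0.07 and 0.38 in G1 and −0.08, −0.08, 0.31 and 0.06 in G0, and the groups overlapped with nearly equal means (difference −0.0015, 95% interval −0.49 to 0.48). The second Bop1 probe set gave −0.39. Wdr12 read 0.05, −0.38, 0.02 and −0.02 in G1 and 0.49, 0.04, −0.16 and −0.06 in G0 (difference −0.16, SE 0.24). G1 replicate 2 was its lowest array and G0 replicate 1 its highest, and the rest lay together. The other probe sets of Wdr12 differed by 0.08 (SE 0.27) and −0.72 (SE 1.24).

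Gnl3, nucleostemin, a GTPase known from proliferating cells, read 0.13, −0.0037, 0.01 and −0.22 in G1 and 0.0037, 0.12, −0.28 and −0.08 in G0. The groups overlapped, and the difference of 0.04 had the narrowest interval of the large subunit group, −0.43 to 0.52. Nop16 had the highest value of that group, at 0.06, 0.34, 0.06 and −0.06 in G1 and −0.30, 0.22, −0.34 and −0.08 in G0 (difference 0.22, SE 0.22). G0 replicate 2 lay among the G1 arrays, and a second Nop16 probe set gave −0.46, of the opposite sign. Nop2, an RNA methyltransferase, Nip7 and the helicase Ddx21 differed by 0.09, 0.03 and −0.11. The second probe sets of Nip7 and Ddx21 gave −0.40 (95% interval −1.03 to 0.24) and −0.04. Over the whole set 35 genes had more than 1 probe set. In 20 of them all probe sets had the same sign (12 positive, 8 negative), and in 15 they did not.

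Promoter sequence was looked at for a feature the choice of genes did not use, since the factor Myc and its relatives bind the letters CACGTG, the canonical E-box. RefSeq windows of 300 bases (250 before to 50 after the start site, build GRCm38.p6) matched 41 of the 49 genes. The letters, which read the same on both strands, stood in 9 of them (22%), against 10.3% of the 14368 tested genes with a window. The 9 genes were Rrn3, Nop2, Pes1, Utp18, Utp20, Wdr43, Polr3c, Polr3e and Polr3gl. Their median log2 difference was 0.01, and that of the 32 members without the letters 0.06. A match is a string of letters and not a shown binding site. The upstream 250 bases are given for a gene of Pol I initiation, of the small subunit and of the large subunit, with the letters in capitals, on the strand of the gene and 5′ to 3′. They lie at chr16:13780449-13780698 (plus strand) for Rrn3, chr11:93885767-93886016 (minus strand) for Utp18 and chr6:125131633-125131882 (plus strand) for Nop2. Rrn3 holds the letters at 2 places, whose first bases lie 215 and 48 bases before its start site.
Rrn3: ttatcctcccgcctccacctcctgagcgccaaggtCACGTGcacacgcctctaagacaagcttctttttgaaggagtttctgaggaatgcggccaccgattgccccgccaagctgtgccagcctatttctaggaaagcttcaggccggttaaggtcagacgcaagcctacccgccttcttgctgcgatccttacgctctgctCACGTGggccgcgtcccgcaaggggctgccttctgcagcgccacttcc
Utp18: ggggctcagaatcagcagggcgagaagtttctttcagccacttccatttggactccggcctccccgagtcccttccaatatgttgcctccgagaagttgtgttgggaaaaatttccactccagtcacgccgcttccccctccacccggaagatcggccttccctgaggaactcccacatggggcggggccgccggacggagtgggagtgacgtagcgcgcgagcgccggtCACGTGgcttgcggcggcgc
Nop2: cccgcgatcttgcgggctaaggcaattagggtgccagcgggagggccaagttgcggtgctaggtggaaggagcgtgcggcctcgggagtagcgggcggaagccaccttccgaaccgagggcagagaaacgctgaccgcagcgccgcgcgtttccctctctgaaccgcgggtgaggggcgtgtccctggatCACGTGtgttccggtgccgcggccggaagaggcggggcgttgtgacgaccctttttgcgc

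Other genes of the same pathways, listed by function, had a median difference near 0 as well, but single genes ranged from −2.17 (Nol9) to 1.45 (Exosc6). Of 132 such genes measured, 0 were higher and 0 lower past the test in limma, with 2 higher and 1 lower at an unadjusted p under 0.05 (2.27%, against the 8.07% of all genes). With the spike-in batch there were 9 higher and 2 lower at that p (8.33%, against 12.4% of all genes), and 0 passed. Their median difference was 0.04. The Pol I partners (14 genes) had a median of 0.04, with Tbp at 0.50 (SE 0.74) and Polr2e, a subunit shared by all nuclear polymerases, at −0.45 (SE 0.27). Pol III factors (24 genes) had a median of 0.05. The 2 Pol III genes at an unadjusted p under 0.05 encode proteins of the RNase P and MRP particles, Pop4 at 0.73 (SE 0.20, limma adjusted p = 0.38) and Rpp30 at 0.79 (SE 0.33, adjusted p = 0.677). Pop4 values ran from 0.17 to 0.57 in G1 and from −0.54 to −0.17 in G0, without overlap.

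Further small subunit factors (38 genes) had a median difference of 0.08, with Utp3 at 0.54 and Rrp7a at −0.42 the widest. Further large subunit factors (41 genes) had a median of −0.04. Nol9, a kinase of the cut precursor RNA in human cells, had the widest difference of all these lists at −2.17 (SE 0.45, limma adjusted p = 0.186). Its values ran from −2.65 to −0.53 in G1 and from 0.53 to 0.89 in G0 without overlap, and it did not pass. Mdn1, a large ATPase that strips factors from the particle, differed by −1.47 with a standard error of 0.98. The exosome and nuclease genes (15) had a median of 0.21, with Exosc6 at 1.45 (SE 0.72) and Exosc2 at 0.56 (SE 0.27). Among marker lists of fibroblasts, leukocytes, epithelium and endothelium, with 8, 7, 7 and 7 genes measured, 0 genes passed in limma, with medians of −0.12, 0.08, 0.49 and 0.21. At an unadjusted p under 0.05 in limma 1 fibroblast and 3 leukocyte genes were lower in G1, where 3.74% of all genes were, and 1 endothelial gene was higher, where 4.33% of all were. The leukocyte genes at that p were 42.9% of the 7 measured, while the list's median was above 0. Its part in the members' values was not tested.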

How the data were processed

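The deposited table holds log2 values of Affymetrix arrays of total RNA. MAS5 is the tool that the submitters' processing notes name. Each probe set is centred on its median over the 8 arrays. The base was taken as 2. The MAS5 version and the step that took logs and centred are not given in the sources used here. Probe sets were named from the platform annotation: 34945 had 1 gene symbol, 932 several and 9160 none. The 45037 non-control probe sets were fitted with limma 3.58.1 in R 4.3.3 (lmFit and eBayes with trend, two-sided), with the labelled batch (replicate 4 of each group) as covariate. P-values were adjusted by Benjamini-Hochberg over all of them. Counts per gene used 1 probe set, the one whose suffix marks the most specific design (_at, then _a_at, then _s_at, then _x_at), with ties going to the lowest number. The number of arrays limits the precision. The fit was tested on simulated data, where the adjusted p passed few changes of the sizes printed for the members, so intervals are given beside it.

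The members and lists were chosen with earlier results of these data known. Values on every array are given for members with a probe set at an unadjusted p under 0.05, for the highest, the lowest and the most precise gene of each of the 6 role groups, and for a set of well-known members. In other lists the genes past the test, or else the 2 widest differences, are named. Alternatives were the spike-in batch, no batch, the replicate number as a block, fewer arrays, array weights, no trend, quantile normalization, median centring, the mean of a gene's probe sets and current gene symbols.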

Additional observations from a re-analysis of the deposited data

Results flagged for a closer look

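In 6 of 76 groups of 4 arrays, 1 array lay far from the other 3 relative to the group's range, where chance marks about 1 in 20 groups. G1 replicate 4, an array without spike-ins, was such an array 4 times. It was at −0.43 for Heatr1 (median of the others 0.02), at −0.56 for Polr3g (0.02), at 0.73 for Tcof1 on 1423600_a_at (0.20) and at −0.14 for the median of the large subunit assembly genes (0.03). G0 replicate 3, the other array without spike-ins, was at −1.03 for Tcof1 on 1424643_at (median of the others −0.02). G0 replicate 2, which held spike-ins, was at 0.12 for Ubtf on 1453097_a_at (median of the others −0.24).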

How the results depend on the processing

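Under every fit run, limma passed 0 member probe sets at an adjusted p under 0.05. At an unadjusted p under 0.05 in limma there were 3 probe sets (2.68%, against 7.3% of all). There were 8 on the arrays with spike-ins only (7.14%, against 8.16% of all) and 13 with the spike-in batch (11.6%, against 11.3% of all). With array weights there were 5. With 1 array left out there were 2 to 8 (8 without G0 replicate 3, 5 without G0 replicate 4). For these last settings the share over all probe sets is not given, so the counts are not read against it. For genes, the count at an unadjusted p under 0.05 in limma was 0 of 49, against 8.07% of all 18193 genes. It was 2 on the arrays with spike-ins only (1637 of all genes) and 2 on replicates 1 to 3 only (1596 of all). With the spike-in batch it was 3 (6.12%, against 12.4% of all). When 1 array was left out it was 0 to 2. It was 2 without G0 replicate 4 (1658 of all) and 2 without G1 replicate 4 (1622 of all). With the mean of all probe sets it was 1, and with the mean without _s_at and _x_at probe sets 1. For these means the share over all genes is not given. Groups did not overlap in 0 genes, against 2 after median centring, 9 on the arrays with spike-ins only, 7 on replicates 1 to 3 only, 6 with the mean of all probe sets, 5 with the mean without _s_at and _x_at probe sets, 1 after quantile normalization, and 1 to 8 when 1 array was left out (8 without G0 replicate 2, 5 without G1 replicate 4, 4 without G0 replicate 3). Fewer arrays make such separation likelier by construction; other causes were not tested. The members' median difference of 0.07 ran from 0.03 without G0 replicate 3 to 0.16 on replicates 1 to 3 only. It was −0.0087 with the mean of all probe sets. In the fits without replicate 4 of 1 group, the other replicate 4 stood alone in its labelled batch. The covariate took it up, so the differences of those fits also rested on replicates 1 to 3. With the replicate number as a block 2 probe sets had an unadjusted p under 0.05 and 37 genes an interval within 1 log2 unit of 0. The numbers showed no clear pairing of the samples. Same-numbered arrays correlated at −0.14 to 0.11 in their deviations, 2 of 4 G1 arrays correlated best with their own number, and the arrays without spike-ins correlated at 0.31. Such low correlations cannot show that the samples were unpaired. In 476 recomputed values the 28 named genes moved by less than the larger of their group SDs. Under some alternative 9 of them changed sign (Bop1, Gnl3, Heatr1, Nop14, Pes1, Polr1c, Polr3b, Polr3g and Rrp12), and Utp18 ran from 0.09 to 1.09. The mean of a gene's probe sets was not among these values. Outside those 9, that mean turned the sign of Polr1a, to 0.39, and of Nop16, to −0.12 (moves of 0.61 and −0.34). The small number of arrays and their scatter limit what the adjusted p can show.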
